A study of Mus musculus with 9 samples.

Results

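Quiescent mouse embryonic fibroblasts that lack p27 (KO) were compared with wild-type fibroblasts (WT) across all genes on 6 of the 9 microarrays of a study of p27 genotypes, 3 arrays per genotype. The arrays were chosen by the genotype in their labels, and each gene was read from its brightest probe set with a single gene symbol, which gave 19937 genes. The remaining 3 arrays carry RNA of another p27 genotype, named CK, and are used below as a spread estimate and for side-by-side values. WT cells are labelled wild type and KO cells p27 knockout, and both were grown in DMEM with 10% fetal bovine serum and then held for 72 h in serum-free medium. Total RNA was prepared with an RNeasy kit and measured as biotin-labelled cRNA on Affymetrix arrays. The extraction protocol, shared by every sample, speaks of wild-type or delta51 mice without saying which of the cells came from delta51 animals, and the sources used here do not say how the KO allele was built. Whether a genotype's arrays stand for separate embryos or cultures is not in the labels. The p-values below thus rest on array-to-array spread, possibly technical only, and an effect of the lost gene cannot be told apart from one of the particular cultures. The comparison asks how expression in arrested fibroblasts differs when p27 is missing.

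p27, encoded by Cdkn1b, belongs to the Cip/Kip family of inhibitors, which bind cyclins and cyclin-dependent kinases (CDKs) and hold cells in G1. Its protein accumulates when fibroblasts lose serum or touch their neighbours, and mice without it grow larger than normal. Embryonic fibroblasts are a mixed culture of mesenchymal cells that make collagen and other matrix and keep the positional transcription factors of the tissue they came from.

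Array medians lay between 7.29 and 7.40 on the log2 scale, and the Pearson r of 2 arrays was 0.995 to 0.998 within a genotype and 0.971 to 0.975 for a KO array with a WT array. Values are RMA log2 levels, quantile-normalized between arrays. They carry no detection calls: low values may be background, a fold is that of the measured values, and a change in total RNA per cell would not be seen. Because these are bulk cultures, fewer cells of a type and less RNA per cell cannot be told apart. A gene was tested when its mean over the 9 arrays reached 7.24, the 40th percentile of genes, which left 11962 genes. limma called a gene at a Benjamini-Hochberg adjusted p under 0.05, and this held for 51.2% of the tested genes, 26.6% higher and 24.6% lower in KO. At least 2-fold differences were rarer, at 3.36% higher and 5.41% lower, and values of the 2 genotypes were fully separate for 60.9% of genes. The median difference over tested genes was 0.01, the median size of a difference 0.20 and the median residual SD 0.09. Shares of a gene group below are to be read against these background shares. The gene lists were chosen with earlier results of these data known, so a group's distance from background is no test of that group. A gene bright in 1 genotype alone can pass the filter through that genotype, so counts and medians over tested members are descriptions. All differences are KO minus WT on the log2 scale, with the standard error (SE) of the limma fit and n = 3 arrays per genotype.

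The targeted gene was low in every KO array. Cdkn1b, on chromosome 6, read 11.42, 11.50 and 11.47 on the WT arrays and 7.44, 7.25 and 7.45 on the KO arrays with probe set 10542310. The groups did not overlap, and the KO arrays were 17.0-fold lower (difference -4.09, SE 0.07, limma adjusted p = 2.35e-11). An exact two-sided permutation test gave p = 0.10, the smallest that 3 arrays against 3 allow. Probe set 10542317, which also carries only the Cdkn1b symbol, was dim in both, with means of 7.43 in WT and 7.60 in KO (difference 0.18, exact permutation p = 0.20). It does not check the deletion, since the part of the gene it covers is not given in the sources used here. Averaging both probe sets gave a difference of -1.955. The KO mean of 7.38 on the bright probe set lies just above the 40th percentile of genes.

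Genes near Cdkn1b on its chromosome were called in both directions, at a share near that of all tested genes. Of 38 neighbours with a probe set, taken from the 20 RefSeq genes on either side, 17 were tested. Of these, 5 were higher and 3 lower, 47.1% called against 51.2% of all tested genes, and these 8 differed by less than 2-fold. Mansc1, too dim to be tested, had means of 7.62 in WT and 6.55 in KO, a measured difference of -1.07 with separate arrays, and is named here after its values were seen. Crebl2, a leucine zipper protein, read 10.43, 10.43 and 10.44 in WT and 11.07, 10.95 and 11.04 in KO, so that its arrays did not overlap (difference 0.58, SE 0.08, limma adjusted p = 9.43e-05). Gprc5a, an orphan receptor, was higher by 0.95, and the histone variant gene H2aj fell by 0.36 on the log2 scale.

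**Figure D1:**
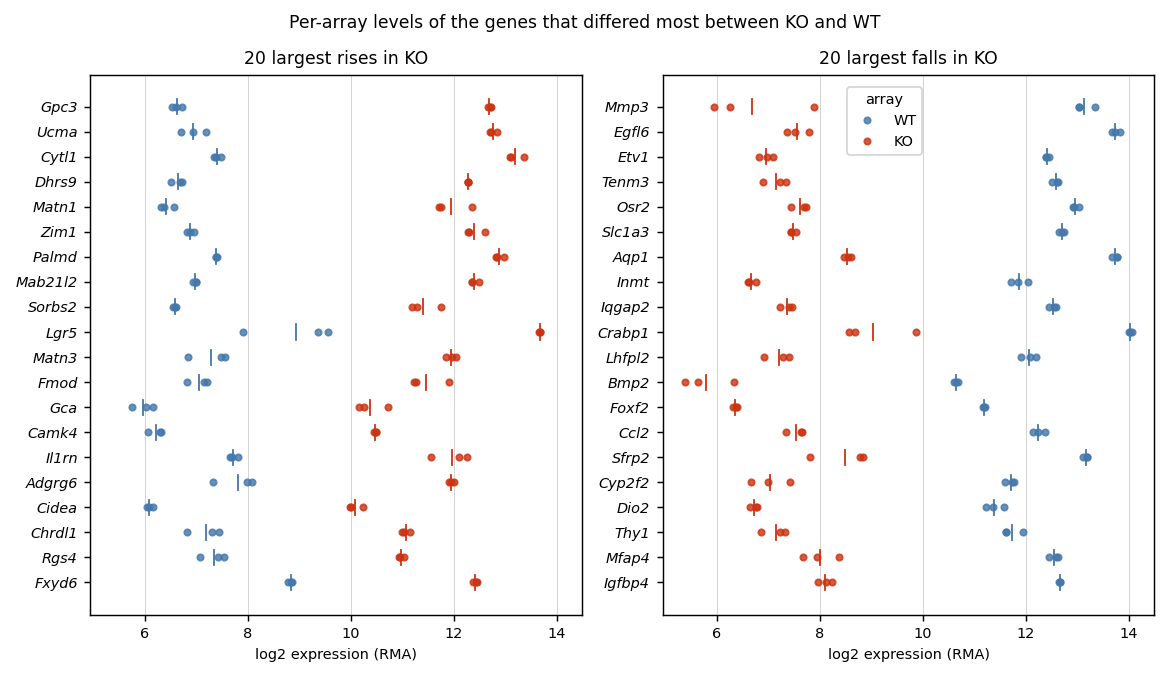
Level of each gene on each of the 3 WT (blue) and 3 KO (red) arrays in log2 units, with a short vertical line at the group mean, for called genes with separate groups, the 20 widest rises and as many falls. The KO points of Mmp3 spread from 5.93 to 7.88 and the WT points of Lgr5 from 7.90 to 9.55, while most other groups are tight.

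The genes with the widest difference moved by more than 3 log2 units in either direction. The 20 largest rises lay between 3.59 and 6.07 and the 20 largest falls between -6.44 and -4.55. In 12 of the rises and 10 of the falls the lower group had a mean under the 40th percentile of genes. Gpc3, a glypican that carries heparan sulfate at the cell surface and is encoded on the X chromosome, read 6.72, 6.53 and 6.62 in WT and 12.66, 12.70 and 12.72 in KO. Every KO array lay far above every WT array (difference 6.07, SE 0.07, limma adjusted p = 2.69e-12). Dhrs9, a short-chain dehydrogenase that acts on retinol, read 6.73, 6.50 and 6.69 in WT and 12.28, 12.28 and 12.27 in KO, with KO arrays nearly equal (difference 5.64, SE 0.06). Among the remaining rises were Adgrg6, an adhesion G protein-coupled receptor (4.15), the calmodulin kinase Camk4 (4.26), the lipid droplet protein Cidea (3.99), Rgs4, which shortens G protein signals (3.63), the calcium-binding protein Gca (4.41) and Fxyd6, a regulator of the sodium pump (3.59). Fxyd6 was bright in both groups, at 8.79, 8.85 and 8.86 in WT and 12.44, 12.38 and 12.44 in KO, without overlap (SE 0.05, limma adjusted p = 6.34e-12).

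The falls were led by genes that WT cells held near the top of the scale. Egfl6, a secreted protein with EGF repeats, read 13.66, 13.73 and 13.83 in WT and 7.78, 7.35 and 7.51 in KO (difference -6.19, SE 0.12, limma adjusted p = 3.54e-11). Tenm3, a teneurin that joins cells across a contact, read 12.61, 12.62 and 12.50 in WT and 7.22, 6.89 and 7.34 in KO (difference -5.43, SE 0.11). For both genes the WT arrays were all above 12 and the KO arrays all under 8. Iqgap2, a scaffold of the actin cytoskeleton (-5.16), Lhfpl2 (-4.86) and Dio2, which activates thyroid hormone (-4.66), were also among the 20. Among genes bright in both groups, Aqp1, a water channel, read 13.77, 13.76 and 13.67 in WT and 8.54, 8.60 and 8.46 in KO, with a difference of -5.20 (SE 0.11). Hpse, the heparanase that cuts heparan sulfate chains, read 12.92, 12.85 and 12.68 in WT and 8.86, 8.94 and 8.52 in KO (difference -4.04, SE 0.14), and its arrays did not overlap. Apoe, a lipid carrier, and Olfm2 differed by -3.90 and -3.98.

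Mesenchymal and fibroblast markers were mostly lower in KO. Of 20 such markers 18 were tested, 13 were lower, 6 of them at least 2-fold, 1 was higher and the median difference was -0.67. Among those not called, Vim, an intermediate filament, and Sparc, a collagen-binding protein, were bright in both genotypes. Their means were 13.92 and 14.02 in WT and 14.01 and 13.95 in KO. Thy1, a surface glycoprotein used to isolate fibroblasts, read 11.62, 11.62 and 11.95 in WT and 7.23, 6.85 and 7.33 in KO. The KO arrays sat near the dim-gene threshold and far below WT (difference -4.59, SE 0.12, limma adjusted p = 5.04e-10). Postn, the matrix protein periostin, the PDGF receptor gene Pdgfra and the limb mesenchyme factor Prrx1 differed by -1.15, -1.32 and -1.60, and stayed above 11 in KO.

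Markers of other cell types were mostly dim in both groups. Of 53 such genes with a probe set, covering macrophages, endothelium, neural cells, skeletal muscle, epithelium and red blood cells, 13 passed the filter, 1 was higher and 7 lower. Cd68, a lysosomal protein abundant in macrophages, read 10.67, 10.72 and 10.54 in WT and 7.88, 7.83 and 8.24 in KO without overlap (difference -2.66, SE 0.10, limma adjusted p = 4.73e-09). Lyz2, the macrophage lysozyme, went the other way (1.93), while the defining macrophage genes Adgre1, Csf1r and Ptprc lay between 5.76 and 6.22 in either genotype, below the filter. Tek, an endothelial receptor kinase, and Map2, a neuronal microtubule protein, were lower (-1.97 and -2.94), while Pecam1, Cdh5 and Kdr and the neural genes Sox10, Elavl4 and Olig2 lay at or under 7.18 in both. Xist, which marks an inactive X chromosome, read means of 12.85 in WT and 12.61 in KO and was not called, and the Y-linked genes Eif2s3y, Kdm5d and Uty lay under 6 in both. The mean log2 level of the 53 genes was 6.87 to 6.91 on the WT arrays and 6.69 to 6.73 on the KO arrays, and for the 9 neural and glial genes 7.09 to 7.13 and 6.55 to 6.61. Their part in the differences below was not tested.

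**Figure D2:**
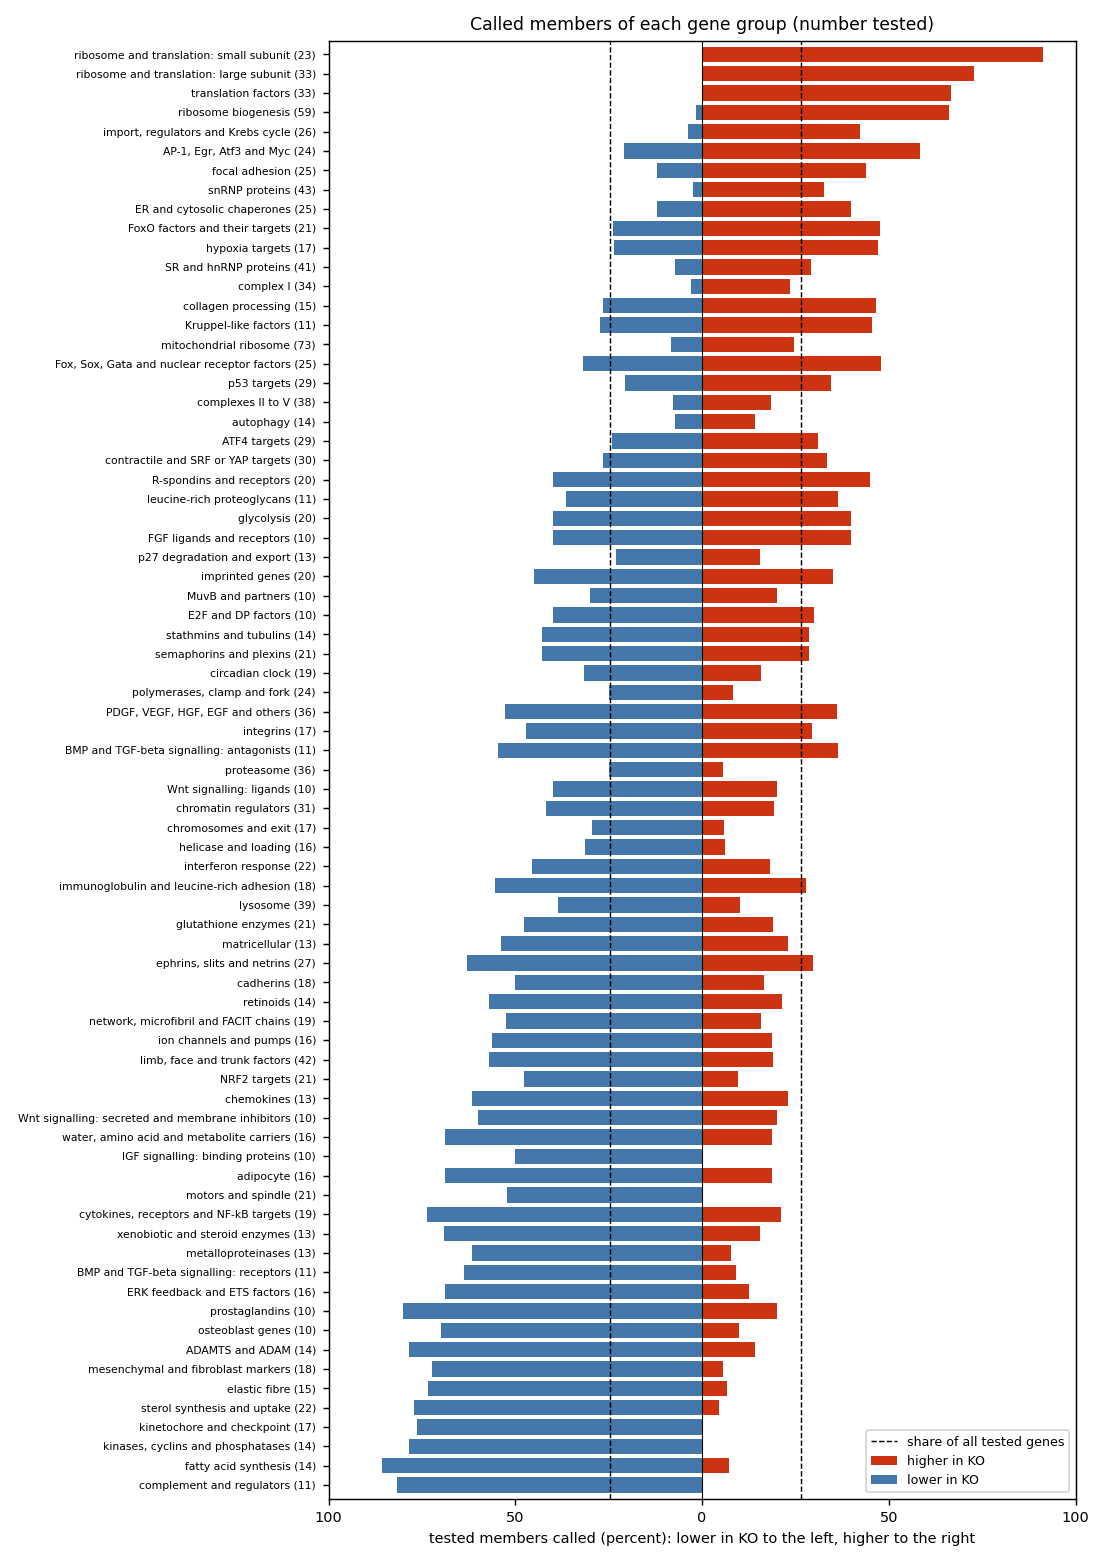
Share of tested members of each gene group called higher in KO (red, to the right) or lower (blue, to the left), in percent, for groups with at least 10 tested members, whose number is in parentheses. Dashed lines mark the shares among all tested genes, 26.6% higher and 24.6% lower. Cytosolic ribosomal proteins stand at the top, and complement, fatty acid and mitotic groups at the bottom.

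Cell cycle genes did not move as one block. Cdkn1c, the p57 relative of p27, was lower by a difference of -1.41, while the genes Cdkn2a and Cdkn2b of the INK4 inhibitor list were higher (1.12 and 0.74). Cdk6, the G1 kinase that works with D-type cyclins, read 10.58, 10.58 and 10.58 in WT and 7.99, 8.04 and 7.97 in KO, the widest difference among the kinases (difference -2.58, SE 0.05, limma adjusted p = 6.51e-11). Its 3 WT values are identical, so no spread can be read there. Of 6 G1 cyclins 4 were lower and 1 higher. Ccnd2, a D-type cyclin, read 12.95, 12.88 and 13.03 in WT and 11.92, 11.85 and 12.04 in KO without overlap, and Ccnd1 and Ccne1 differed by -1.17 and -0.74. The machinery that degrades or exports p27 was little changed, with 2 of 13 genes higher and 3 lower. Stmn1, the microtubule-destabilising partner that p27 binds, fell by 0.73 on the log2 scale, and Cul1, the scaffold of the SCF ubiquitin ligase, fell by 0.37.

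Pocket proteins and E2F factors moved in both directions. Rbl2, the p130 pocket protein typical of quiescent cells, read 10.43, 10.46 and 10.46 in WT and 10.99, 10.96 and 10.89 in KO, a rise of 0.50 (SE 0.07, limma adjusted p = 0.000101). E2f4, a repressor E2F, was higher by 0.50 and the activator E2f1 lower, with a difference of -0.58. Of 46 tested genes of DNA replication 13 were lower and 4 higher, 37.0% called against 51.2% of all genes. Cdt1, which loads the helicase, read 9.68, 9.60 and 9.68 in WT and 9.12, 8.87 and 9.52 in KO, with the KO arrays spread widely but all below WT (difference -0.48, SE 0.13, limma adjusted p = 0.0102). Rrm2, which supplies deoxynucleotides, and Uhrf1, which maintains DNA methylation, fell, with differences of -0.86 and -0.86, while the primase subunit Prim2 was higher by 0.38.

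Mitotic genes were lower in KO, by small amounts. In the list of G2/M and mitosis 40 of 69 tested genes were lower and 1 was higher, with a median difference of -0.48 and 1 gene past 2-fold. The share that fell differed by role, with 11 of 14 kinases, cyclins and phosphatases, 13 of 17 kinetochore and checkpoint genes, 11 of 21 motors and spindle proteins and 5 of 17 genes of chromosome structure and exit. Cdc25b, a phosphatase that activates CDKs, read 10.60, 10.52 and 10.59 in WT and 9.83, 9.83 and 9.71 in KO, so that the groups did not overlap (difference -0.78, SE 0.07, limma adjusted p = 5.74e-06). Sgo2a, the shugoshin that guards centromere cohesion, read 9.96, 9.79 and 10.28 in WT and 8.81, 8.61 and 9.29 in KO and was the gene past 2-fold (difference -1.10, SE 0.17). Tpx2, which activates Aurora A on the spindle, read 8.97, 9.05 and 9.19 in WT and 8.35, 8.16 and 8.76 in KO (difference -0.65, SE 0.14). For Sgo2a and Tpx2 the third array was the highest of its group in both genotypes. The third KO array still lay below every WT array. Pttg1, the securin, read 8.91, 8.91 and 9.05 in WT and 8.43, 8.22 and 8.57 in KO (difference -0.55, SE 0.10). Top2a, the topoisomerase of dividing cells, and the condensin gene Ncaph differed by -0.72 and -0.71.

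Promoter windows of these genes often hold the letters of 2 elements tied to mitotic genes, the cell cycle homology region (CHR), searched as TTTGAA, and the CCAAT box. RefSeq windows of GRCm38.p6, from 250 bases before to 50 after a gene's start, were matched by symbol to 9564 of the 11962 tested genes and searched on both strands. TTTGAA was in 40 of 60 windows of the mitosis list (66.7%) against 11.3% of tested-gene windows, and CCAAT in 44 of 60 (73.3%) against 38.5%. The alternative CHR letters TTTAAA were in 11 of 60 (18.3%) against 8.56%. Within the list the share with TTTGAA was 20 of 34 among genes that fell and 19 of 25 among those not called. In replication genes TTTGAA was in 7 of 40 windows (17.5%). The E2F letters TTTGGCGC were in 6 of 40 replication windows (15%) and 3 of 60 mitosis windows (5.00%) against 1.04%, and TTTCGCGC in 4 and 1 against 0.606%. None of the motifs searched here or below contains another, and a match describes letters and not binding. The windows of the 3 mitosis genes with the smallest p among those that fell and hold TTTGAA are shown to the 30th base after the start, with TTTGAA and CCAAT on either strand in capitals. They are Kif20b, a kinesin of cell division (chr19:34922108-34922387, plus strand), Cdk1, the mitotic kinase (chr10:69352883-69353162, minus strand), and Hmmr, a spindle-associated hyaluronan receptor (chr11:40733408-40733687, minus strand).
Kif20b: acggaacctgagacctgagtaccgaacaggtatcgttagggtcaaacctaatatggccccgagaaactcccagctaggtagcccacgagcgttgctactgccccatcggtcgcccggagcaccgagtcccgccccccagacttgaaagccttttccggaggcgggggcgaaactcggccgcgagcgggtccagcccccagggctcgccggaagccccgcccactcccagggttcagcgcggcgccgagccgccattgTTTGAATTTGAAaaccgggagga
Cdk1: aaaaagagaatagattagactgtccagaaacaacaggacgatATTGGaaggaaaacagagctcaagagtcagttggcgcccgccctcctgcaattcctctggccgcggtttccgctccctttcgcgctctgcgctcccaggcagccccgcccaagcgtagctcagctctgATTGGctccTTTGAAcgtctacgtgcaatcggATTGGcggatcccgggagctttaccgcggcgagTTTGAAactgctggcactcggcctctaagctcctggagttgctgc
Hmmr: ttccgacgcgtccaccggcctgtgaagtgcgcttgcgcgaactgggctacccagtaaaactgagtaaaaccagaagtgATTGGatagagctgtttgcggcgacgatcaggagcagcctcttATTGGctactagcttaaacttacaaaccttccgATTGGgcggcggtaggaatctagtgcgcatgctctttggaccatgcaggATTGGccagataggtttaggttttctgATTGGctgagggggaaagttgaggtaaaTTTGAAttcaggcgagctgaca
Kif20b holds TTTGAA 2 times side by side and no CCAAT, Cdk1 holds 2 and 3, and Hmmr 1 and 5. Their differences were -0.55, -0.62 and -0.95.

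Cartilage genes were among the strongest rises in KO. Col2a1, the main collagen of cartilage, read 9.50, 9.43 and 9.48 in WT and 12.56, 12.56 and 12.89 in KO (difference 3.20, SE 0.08, limma adjusted p = 3.87e-10). Sox6, which acts with Sox5 and Sox9 to switch on cartilage genes, read 8.08, 8.15 and 7.98 in WT and 11.06, 11.04 and 11.08 in KO (difference 2.99, SE 0.05). Both were well above the dim-gene threshold in WT, and no KO array overlapped WT. Cartilage matrix genes started from lower levels. Cytl1, a cytokine-like protein of cartilage, read 7.39, 7.47 and 7.34 in WT and 13.10, 13.10 and 13.36 in KO (difference 5.79), Ucma 6.94, 7.19 and 6.71 and 12.72, 12.71 and 12.84 (difference 5.81), and the matrilin Matn1 6.58, 6.38 and 6.31 and 11.71, 11.75 and 12.36 (difference 5.52). In all 3 the WT arrays were close to or under the dim-gene threshold and the KO arrays above 11. Of 35 cartilage genes with a probe set 25 were tested, 18 were higher, 2 lower and 13 at least 2-fold higher. A gene bright only in KO passes the filter through KO, so this count is a description. Over all 16 cartilage matrix genes on the array, 10 had KO arrays above every WT array and 1 had KO arrays below. Over all 19937 genes on the array these counts were 4509 and 4155. Nkx3-2, a factor of early chondrocytes, Sox9 and the growth-restraining receptor Fgfr3 rose by 2.66, 1.55 and 1.69, and the minor cartilage collagens Col9a1 and Col11a1 by 2.12 and 1.72. The hypertrophic collagen Col10a1 (difference -0.08) and the collagen IX chains Col9a2 and Col9a3 (0.04 and 0.11) were not called. The SOX letters ACAATG were in 1 of 21 windows of the list (4.76%) against 6.76%.

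Bone genes did not follow. Of 10 tested osteoblast genes 7 were lower and 1 higher. Bmp2, an inducer of bone and cartilage, read 10.64, 10.61 and 10.67 in WT and 6.33, 5.38 and 5.63 in KO (difference -4.86, SE 0.20, limma adjusted p = 1.15e-08). The KO arrays spread over about 1 log2 unit below 6.40 and remained far from WT. Alpl, the alkaline phosphatase of mineralising cells, and Msx2 fell, with differences of -1.33 and -0.77, while Tnfrsf11b, the decoy receptor osteoprotegerin, rose by 2.06.

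**Figure D3:**
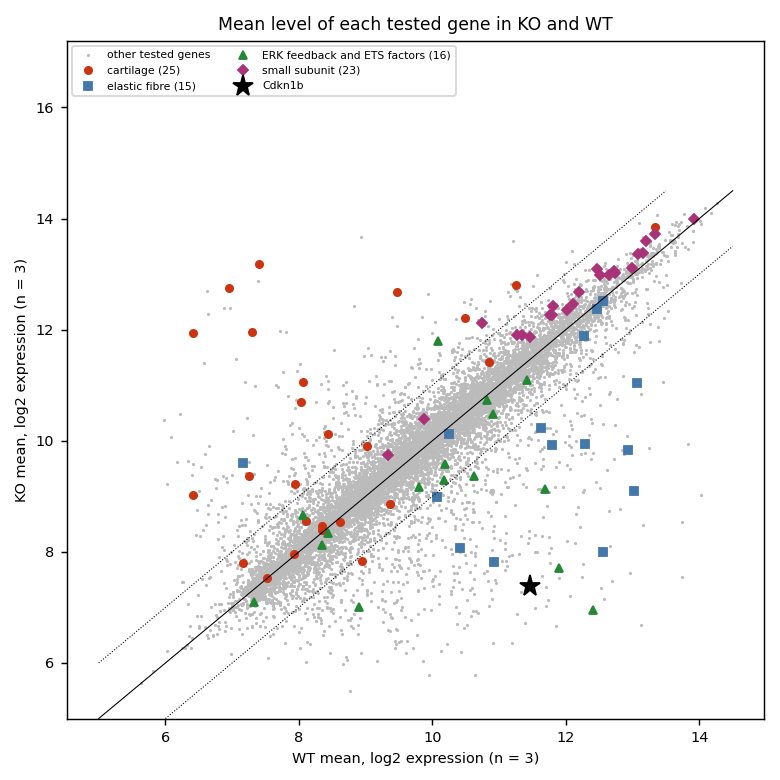
Mean log2 level of each tested gene over the 3 WT arrays (horizontal) and the 3 KO arrays (vertical), with 4 gene groups and Cdkn1b marked, a solid line of equal level and dotted lines at a 2-fold difference. Cartilage genes reach far above the diagonal, elastic fibre genes and the genes of ERK feedback lie mostly below it, and small ribosomal subunit genes sit just above it.

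Genes of the elastic fibre, the stretchable network of elastin on fibrillin microfibrils, were mostly lower. Of 15 tested genes 11 were lower, 10 of them at least 2-fold, and 1 was higher, with a median of -1.87 against 0.01 for all tested genes. Mfap4, a microfibril protein needed for fibre assembly, and Efemp1, the fibulin 3 gene, fell, with differences of -4.56 and -3.93, and Emilin2 and Mfap2 differed by -2.34 and -2.03. The rise was that of Mfap5, the other microfibril-associated glycoprotein, which read 7.24, 7.05 and 7.18 in WT and 9.60, 9.59 and 9.60 in KO (difference 2.44, SE 0.08, limma adjusted p = 1.82e-09). Fbln5, Emilin1 and Ltbp3 were not called, with differences of -0.03, -0.13 and -0.08.

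Other matrix genes split by kind. Fibrillar collagen genes changed little, with 4 of 7 lower and 0 past 2-fold. Col1a2, a chain of type I collagen, read 13.31, 13.24 and 13.08 in WT and 12.52, 12.53 and 12.39 in KO (difference -0.73, SE 0.07). Larger falls were those of Col23a1, a transmembrane collagen, which read 11.54, 11.51 and 11.58 in WT and 8.02, 7.86 and 8.12 in KO (difference -3.54, SE 0.07, limma adjusted p = 6.51e-11), and of Col18a1, the source of endostatin (-3.16). Of the lysyl oxidases, which crosslink collagen and elastin, Loxl4 read 9.20, 9.06 and 9.43 in WT and 11.55, 11.48 and 11.51 in KO, a rise of 2.28 (SE 0.09), while Loxl1 fell by 1.37. Leucine-rich proteoglycans, which space collagen fibrils, went both ways. Fmod rose by 4.41 and Prelp by 1.33, while Podn read 10.94, 10.88 and 10.87 in WT and 8.02, 7.97 and 8.12 in KO (difference -2.86, SE 0.09). Hyaluronan and versican genes had 6 of 7 members lower and 0 higher. Cd44, the hyaluronan receptor, read 9.99, 9.98 and 9.92 in WT and 8.87, 8.77 and 8.90 in KO (difference -1.12, SE 0.06), and the synthase Has2 and the proteoglycan Vcan differed by -1.92 and -3.39. Sparcl1, a matricellular protein, read 9.61, 9.62 and 9.82 in WT and 6.76, 6.77 and 6.80 in KO (difference -2.91, SE 0.07), beside Ccn3 (-3.37) and Tgfbi (-3.37).

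Matrix proteases fell more often than they rose. Of 13 tested metalloproteinases 8 were lower and 1 higher, and of 14 ADAMTS and ADAM genes 11 were lower and 2 higher, with a median of -1.0. Mmp3, stromelysin 1, showed the widest fall of any called gene, from 13.03, 13.03 and 13.33 in WT to 7.88, 5.93 and 6.25 in KO (difference -6.44, SE 0.39, limma adjusted p = 2.2e-07). Its first KO array stood well above the other 2, and even the highest of them was more than 5 log2 units below WT. Mmp9, a gelatinase, read 10.90, 10.93 and 10.68 in WT and 7.41, 7.53 and 7.47 in KO (difference -3.36, SE 0.08). Adam23 read 10.20, 10.25 and 10.65 in WT and 6.74, 6.67 and 6.70 in KO (difference -3.66, SE 0.10). Neither overlapped between genotypes. The membrane protease Mmp14 differed by -1.35, while Adamts5, the main aggrecanase of mouse cartilage, rose by 1.91. Reck, a membrane inhibitor of metalloproteinases, read 11.78, 11.78 and 11.74 in WT and 12.72, 12.73 and 12.78 in KO, a rise of 0.98 (SE 0.05). The AP-1 letters TGAGTCA, a known element of the Mmp3 promoter, were in 4 of 21 windows of the protease list (19%) against 3.46% of tested-gene windows, with 1 of 12 among genes that fell. The window of Mmp3 (chr9:7445572-7445851, plus strand, GRCm38.p6) is shown as that of the widest fall, with TGAGTCA in capitals.
Mmp3: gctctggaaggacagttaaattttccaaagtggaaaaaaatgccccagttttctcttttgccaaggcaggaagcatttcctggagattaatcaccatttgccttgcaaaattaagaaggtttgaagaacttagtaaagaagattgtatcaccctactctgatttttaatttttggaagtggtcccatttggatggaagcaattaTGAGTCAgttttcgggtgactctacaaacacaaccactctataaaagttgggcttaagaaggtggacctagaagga
It holds 1 copy.

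Wnt signalling, in which secreted ligands act through Frizzled receptors and R-spondins amplify the signal through Lgr receptors, changed on each level. Of 10 tested ligands 4 were lower and 2 higher. Wnt16 read 10.34, 10.52 and 9.96 in WT and 7.30, 7.23 and 7.35 in KO (difference -2.98, SE 0.12, limma adjusted p = 8.38e-09), and Wnt5a, a ligand of the non-canonical branch, differed by -1.52. Among 20 R-spondins and receptors 9 were higher and 8 lower, 7 and 5 of them at least 2-fold. Rspo1 read 11.15, 10.99 and 11.19 in WT and 8.43, 8.20 and 8.37 in KO (difference -2.77, SE 0.09), and Rspo2 and the Wnt5a receptor Ror2 were lower as well (-2.13 and -1.57). Lgr5, the receptor that binds R-spondins, was high on every KO array, at 13.67, 13.66 and 13.68, against 9.55, 9.36 and 7.90 in WT. The third WT array was the lowest, and the difference of 4.73 (SE 0.33, limma adjusted p = 7.93e-07) was larger than the spread of WT. Fzd9 rose by 2.55. Of 10 tested secreted and membrane inhibitors 6 were lower and 2 higher. Sfrp2, a Frizzled-like decoy, read 13.18, 13.19 and 13.12 in WT and 8.84, 8.78 and 7.81 in KO (difference -4.68, SE 0.22), and Sfrp1 read 12.94, 12.82 and 12.98 and 10.07, 9.96 and 10.20 (difference -2.84, SE 0.11). Target genes gave no common direction. Nkd1 rose by 1.49, while Axin2 and Nkd2 fell, with differences of -1.0 and -1.73, and the effector gene Ctnnb1 was not called (-0.03).

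BMP and TGF-beta genes were more often lower, with 25 of 42 tested lower and 7 higher. Inhba, which encodes the activin A subunit, read 11.79, 11.72 and 11.73 in WT and 9.28, 9.14 and 8.82 in KO (difference -2.67, SE 0.12, limma adjusted p = 2.06e-08), and Tgfb1 differed by -1.09. Among receptors, Eng, a co-receptor, read 10.59, 10.52 and 10.38 in WT and 7.81, 7.76 and 7.85 in KO (difference -2.69, SE 0.08). Its partner Acvrl1 was lower too (-1.57), and Tgfbr2 was higher (0.73). Antagonists moved in both directions. Chrdl1, which traps BMPs, read 7.44, 7.31 and 6.83 in WT and 11.00, 11.03 and 11.16 in KO (difference 3.87, SE 0.14), while the activin trap Fst differed by -1.94. Of 7 targets 5 were lower, and Id4, a target that blocks bHLH factors, read 10.91, 10.88 and 10.87 in WT and 9.18, 9.14 and 9.04 in KO (difference -1.76, SE 0.06).

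Insulin-like growth factors, which drive the growth of mesenchymal cells, had both ligands lower. Igf2 read 11.93, 12.01 and 12.10 in WT and 7.92, 7.79 and 8.86 in KO, the third KO array being the highest (difference -3.82, SE 0.24, limma adjusted p = 2.92e-07), and Igf1 differed by -3.33. The scavenger receptor Igf2r and the adaptor Irs1 rose by 0.84 and 0.68, and the signalling receptor Igf1r was not called. Of 10 binding proteins and their regulators 5 were lower and 0 higher. Igfbp4 read 12.64, 12.67 and 12.66 in WT and 8.24, 7.96 and 8.11 in KO (difference -4.55, SE 0.07), and the proteases Pappa and Pappa2, which cut IGF binding proteins, differed by -1.85 and -2.84.

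Fibroblast growth factor (FGF) genes moved in both directions, and feedback genes of the ERK pathway were more often lower. Of 10 tested FGF ligands and receptors 4 were higher and 4 lower, 3 of each at least 2-fold, with a median of -0.03. Fgf10, a mesenchymal ligand of limb and lung growth, read 10.67, 10.66 and 10.62 in WT and 7.02, 6.96 and 6.82 in KO (difference -3.72, SE 0.07, limma adjusted p = 3.09e-11), and Fgf2 differed by -1.94. The receptors Fgfr2 and Fgfr3 rose by 1.48 and 1.69, and Fgfr1 was not called. Of 16 feedback genes and ETS factors, which ERK activity raises, 11 were lower and 2 higher, with a median of -0.51. Etv1, an ETS factor, read 12.39, 12.39 and 12.44 in WT and 7.08, 6.82 and 6.96 in KO (difference -5.45, SE 0.07). No KO array came within 5 log2 units of WT. The feedback inhibitors Spry4 and Spry1 and the ERK phosphatase Dusp6 differed by -4.19, -2.55 and -1.27. Among other growth factors Vegfd and Angptl4 were lower (-2.35 and -1.78), and Gfra2, a neurturin receptor, was higher (2.37).

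Notch and Hedgehog genes were called in both directions, with 4 higher and 3 lower of 9 tested Notch genes and 2 and 2 of 9 Hedgehog genes. These are 77.8% and 44.4% called, beside 51.2% of all tested genes. Hey2, a Notch target, read 7.36, 7.54 and 7.05 in WT and 9.99, 10.09 and 10.23 in KO (difference 2.79, SE 0.12, limma adjusted p = 1.76e-08), while Hes1, another, differed by -1.54. Ptch1, the Hedgehog receptor and target, read 9.13, 9.15 and 9.19 in WT and 11.18, 11.17 and 11.16 in KO (difference 2.01, SE 0.06). Gli1, the other standard Hedgehog target, was not called (0.01), and Hhip fell by 1.34.

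Positional transcription factors differed widely. Of 42 tested factors of limb, face and trunk 24 were lower, 18 of them at least 2-fold, and 8 higher, with a median of -0.74, and of -0.23 over all 50 on the array. Osr2, a zinc finger factor of palate and limb, read 12.93, 12.91 and 13.03 in WT and 7.69, 7.73 and 7.44 in KO (difference -5.33, SE 0.09, limma adjusted p = 2.09e-11). Mab21l2, a factor of eye and body wall development, went the other way, from 6.99, 6.94 and 6.99 in WT to 12.35, 12.36 and 12.48 in KO (difference 5.42, SE 0.07). The T-box factors Tbx1 and Tbx2 and the zinc finger factor Zic1 differed by -3.91, -3.26 and -3.43. Foxf2, a forkhead factor of mesenchyme, read 11.21, 11.16 and 11.19 in WT and 6.39, 6.30 and 6.37 in KO (difference -4.83, SE 0.08), and Sox11 and Gata3 were lower, with Ebf3 higher (-2.33, -2.08 and 1.91). Hox genes, which mark position along the body axis, differed by cluster. In cluster A 6 of 8 tested genes were higher and 0 lower, with a median of 1.30, and of 0.81 over all 10 on the array. Hoxa2 read 8.57, 8.48 and 8.25 in WT and 10.62, 10.65 and 10.74 in KO (difference 2.24, SE 0.10), and Hoxa3, Hoxa6 and Hoxa7 rose by 1.70, 1.70 and 1.10. The posterior members Hoxa9 and Hoxa10 were not called (0.06 and 0.10). In cluster B 2 of 5 tested genes were lower and 0 higher, in cluster D 0 of 4 were called, and no gene of cluster C passed the filter.

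**Figure D4:**
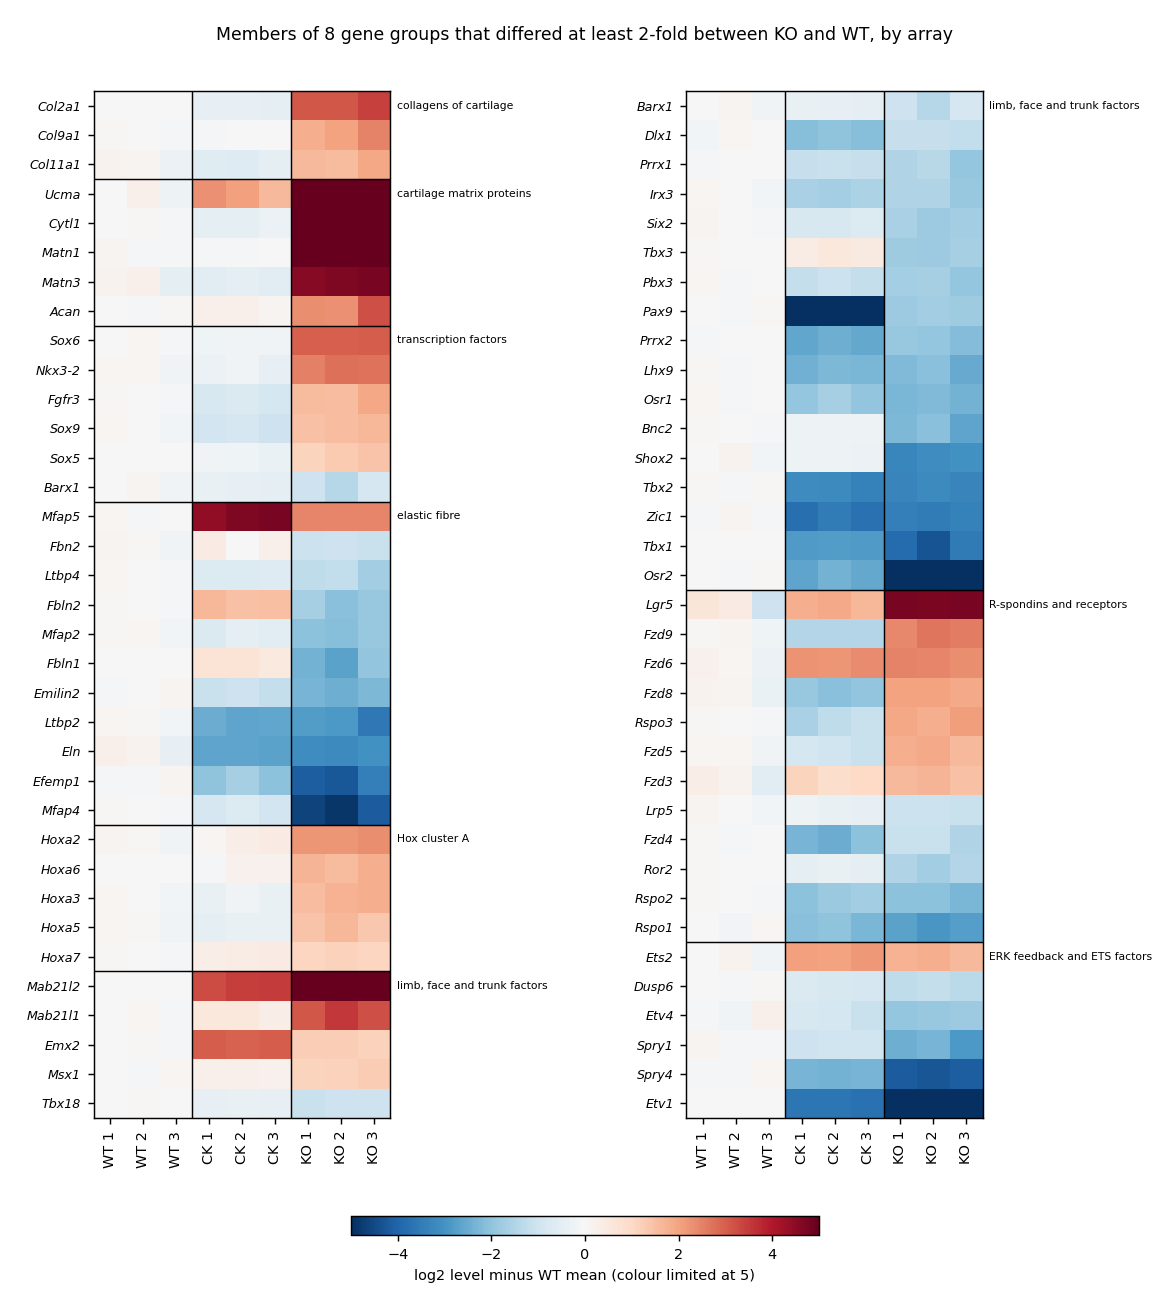
Log2 level of each gene on each WT, CK and KO array minus its WT mean, in colour (red higher, blue lower, limited at 5), for 70 called genes of 8 groups that differed at least 2-fold between KO and WT. Within a genotype the 3 arrays have like colours, and the CK columns follow KO for some genes and WT for others. CK arrays entered the choice of genes only through the filter on the mean over 9 arrays and the shared spread estimate.

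Imprinted genes, of which cells use 1 parental copy, also went both ways, with 7 of 20 higher and 9 lower. Zim1 read 6.95, 6.88 and 6.81 in WT and 12.28, 12.29 and 12.62 in KO (difference 5.52, SE 0.09, limma adjusted p = 1.73e-11), and its neighbour Peg3 rose by 2.40. Slc38a4, an amino acid transporter, read 8.02, 7.98 and 8.07 in WT and 11.44, 11.36 and 11.34 in KO (difference 3.36, SE 0.05). None of these arrays overlapped. Cdkn1c and Igf2, given above, were lower.

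Cytokine and chemokine genes were lower in most cases. Of 42 tested genes of cytokines, chemokines and prostaglandins 30 were lower and 9 higher, and of all 61 with a probe set 19 were too dim to be tested. Ccl2, a monocyte attractant, read 12.22, 12.14 and 12.36 in WT and 7.65, 7.34 and 7.64 in KO (difference -4.70, SE 0.13, limma adjusted p = 7.13e-10), and its neighbour in the gene cluster Ccl7 differed by -3.56. Icam1, an adhesion molecule for leukocytes, read 11.82, 11.79 and 11.69 in WT and 7.77, 7.77 and 7.88 in KO (difference -3.96, SE 0.06). Against this run, Il1rn, the natural blocker of the interleukin 1 receptor, rose by 4.25 and the chemokine scavenger Ackr3 by 1.19. The NF-kB letters GGGANTTTC, in which N is any base, were in 3 of 31 windows of the list (9.68%) against 0.816%.

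Of 10 tested prostaglandin genes 8 were lower and 2 higher. Ptges, which makes prostaglandin E, read 11.61, 11.49 and 11.52 in WT and 8.39, 8.37 and 8.18 in KO (difference -3.23, SE 0.07, limma adjusted p = 6.49e-11), while Ptgis, which makes prostacyclin, rose by 2.70. The degrading enzyme Hpgd and the prostacyclin receptor Ptgir were lower (-2.90 and -0.93).

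Complement genes had 9 of 11 tested members lower and 0 higher, with a median of -1.39, and of -0.27 over all 16 on the array. Cd59a, which blocks the membrane attack complex, read 10.60, 10.69 and 10.44 in WT and 6.82, 6.76 and 6.96 in KO (difference -3.73, SE 0.12, limma adjusted p = 2.45e-09), and the regulator Cd55 and the components C4b and C2 differed by -2.68, -3.40 and -1.94. Cfb and C1ra were not called (-0.03 and -0.0). Interferon response genes had 10 of 22 lower and 4 higher. Ifitm3, an antiviral membrane protein, read 13.07, 13.12 and 13.23 in WT and 12.14, 12.07 and 12.18 in KO (difference -1.0, SE 0.06), and Oasl2 differed by -2.35.

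Retinoid, steroid and drug metabolism genes were lower in 17 of 27 tested cases and higher in 5. Crabp1, which binds retinoic acid in the cytoplasm, read 14.01, 14.01 and 14.06 in WT and 9.86, 8.67 and 8.56 in KO, the first KO array being more than 1 log2 unit above the others (difference -5.0, SE 0.27, limma adjusted p = 9.13e-08). Crabp2 and the retinol dehydrogenase Rdh10 were lower as well (-1.70 and -1.09). Inmt, a methyltransferase of indole amines, read 11.84, 11.70 and 12.04 in WT and 6.76, 6.61 and 6.63 in KO (difference -5.19, SE 0.11), and the cytochromes Cyp2f2 and Cyp2s1 and the aryl hydrocarbon receptor gene Ahr differed by -4.68, -3.74 and -2.28. Antioxidant genes under NRF2 had 10 of 21 lower and 2 higher. Nfe2l2, which encodes NRF2, read 12.54, 12.50 and 12.58 in WT and 11.56, 11.57 and 11.46 in KO (difference -1.01, SE 0.06), and its target Nqo1 differed by -1.45, while Fth1 and Prdx1 were not called (-0.14 and 0.09). Of the glutathione enzymes Mgst1 read 10.69, 10.96 and 10.90 in WT and 7.10, 7.30 and 6.69 in KO (difference -3.82, SE 0.13), and Gsta4 differed by -2.68.

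Sterol and fatty acid synthesis genes were lower in most cases, mainly by less than 2-fold. Of 22 sterol genes 17 were lower and 1 higher, with a median of -0.53, and of 14 fatty acid genes 12 were lower and 1 higher. Tm7sf2, a sterol reductase, read 11.07, 11.16 and 11.03 in WT and 9.27, 9.25 and 9.27 in KO (difference -1.83, SE 0.05, limma adjusted p = 9.77e-10). Elovl7, which lengthens fatty acids, read 11.54, 11.63 and 11.56 in WT and 9.19, 9.25 and 8.96 in KO (difference -2.44, SE 0.08). These were the only members of the sterol and fatty acid groups past 2-fold. The regulator gene Srebf2 was not called (-0.02). CCAAT, which lies beside the sterol element in known promoters of the pathway, was in 15 of 17 sterol gene windows (88.2%) against 38.5%, and the sterol element letters TCACCCCA in 2 of 17 (11.8%) against 1.44%. The windows of the 2 called sterol genes with the smallest p among those that hold CCAAT are Tm7sf2 (chr19:6067821-6068100, minus strand) and Hmgcs1, the synthase that opens the pathway (chr13:119690101-119690380, plus strand), in GRCm38.p6, with CCAAT and TCACCCCA in capitals.
Tm7sf2: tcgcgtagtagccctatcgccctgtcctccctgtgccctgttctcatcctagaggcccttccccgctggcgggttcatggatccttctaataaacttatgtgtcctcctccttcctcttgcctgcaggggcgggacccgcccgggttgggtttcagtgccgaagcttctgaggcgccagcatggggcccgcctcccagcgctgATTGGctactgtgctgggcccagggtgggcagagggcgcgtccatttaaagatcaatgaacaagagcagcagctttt
Hmgcs1: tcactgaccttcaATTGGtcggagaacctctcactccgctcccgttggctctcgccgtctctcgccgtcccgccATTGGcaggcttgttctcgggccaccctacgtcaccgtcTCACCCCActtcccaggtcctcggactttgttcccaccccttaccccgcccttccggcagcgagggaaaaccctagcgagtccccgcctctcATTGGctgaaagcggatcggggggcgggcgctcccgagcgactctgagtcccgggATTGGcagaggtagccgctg
Tm7sf2 holds 1 CCAAT and 0 TCACCCCA, and Hmgcs1, which differed by -0.83, holds 4 and 1.

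Ribosome and translation genes were raised by small amounts in most cases. Of 148 tested genes 106 were higher and 1 lower, with a median of 0.31 and 1 gene past 2-fold. Small-subunit proteins had 21 of 23 higher, large-subunit proteins 24 of 33, ribosome biogenesis factors 39 of 59 and translation factors 22 of 33. Rps3a1, a small-subunit protein, read 10.58, 10.83 and 10.80 in WT and 12.16, 12.05 and 12.13 in KO and was the gene past 2-fold (difference 1.38, SE 0.10, limma adjusted p = 8.18e-07). Rpl22, of the large subunit, read 10.33, 10.33 and 10.27 in WT and 10.89, 10.86 and 10.97 in KO (difference 0.60, SE 0.08). Polr1e, a subunit of RNA polymerase I, read 7.75, 7.71 and 7.74 in WT and 8.51, 8.55 and 8.49 in KO (difference 0.78, SE 0.05), and the nucleolar proteins Nop58 and Dkc1 rose by 0.96 and 0.64. Ribosomal protein genes have many near-identical pseudogenes, which may share probes, so single values are uncertain. The ETS letters CCGGAAG were in 43 of 118 windows of the list (36.4%) against 17.9%, and the E-box CACGTG in 22 (18.6%) against 10.3%. The ETS letters were in 35.3% of the windows of genes that rose and 39.4% of those not called, and the E-box in 16.5% and 24.2%. Of splicing and mitochondrial genes 35.7% and 32.2% were called, beside 51.2% of all tested genes, with 26 of 84 and 44 of 171 higher and 4 and 11 lower. Khdrbs3, a splicing regulator, and Uqcrh, of respiratory complex III, led them (1.09 and 1.30).

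Stress and protein quality genes moved in part, at shares near or below the 51.2% called among all tested genes. The glycolysis and hypoxia lists, given last, were called at higher shares. Slc7a1, a cationic amino acid transporter and ATF4 target, read 9.30, 9.33 and 9.40 in WT and 10.64, 10.66 and 10.52 in KO (difference 1.26, SE 0.06, limma adjusted p = 3.86e-08). The serine synthesis gene Phgdh and the asparagine synthetase Asns rose by 1.09 and 0.82, while Atf4, Trib3 and Ddit3 were not called. In the list of ATF4 targets 9 of 29 were higher and 7 lower, 55.2% called. The small heat shock protein Cryab read 11.18, 11.24 and 11.00 in WT and 12.24, 12.16 and 12.16 in KO (difference 1.05, SE 0.07). Of 36 proteasome genes 2 were higher and 9 lower (30.6% called), and of 39 lysosome genes 4 and 15 (48.7%). Ctsk, a collagen-degrading cathepsin, differed by -2.92. Of 20 tested glycolysis genes 8 were higher and 8 lower, and of 17 tested hypoxia targets 8 were higher and 4 lower. Aldoc, a brain-type aldolase of the glycolysis list, read 9.46, 9.43 and 9.62 in WT and 6.34, 6.32 and 6.47 in KO (difference -3.13, SE 0.08). Adm, a hypoxia target that encodes adrenomedullin, read 10.23, 10.24 and 10.57 in WT and 6.99, 7.22 and 6.83 in KO (difference -3.33, SE 0.15).

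Adhesion genes differed by kind of contact. Of 25 focal adhesion genes 11 were higher, 7 at least 2-fold, and 3 lower. Sorbs2, an adaptor between actin and adhesions, read 6.55, 6.59 and 6.61 in WT and 11.28, 11.19 and 11.75 in KO (difference 4.82, SE 0.13, limma adjusted p = 5.33e-10), and Lims2, Tns3 and Tln2 rose by 1.78, 1.75 and 1.47. Of 18 cadherins 9 were lower and 3 higher. Pcdh7, a protocadherin, read 11.53, 11.46 and 11.29 in WT and 7.42, 7.35 and 7.31 in KO (difference -4.07, SE 0.07), and Dchs1, the cadherin partner of Fat4 in tissue polarity, differed by -3.51. Palmd, the paralemmin relative palmdelphin, read 7.39, 7.40 and 7.38 in WT and 12.98, 12.82 and 12.85 in KO (difference 5.49, SE 0.06), while Mylk, the kinase that turns on myosin, differed by -3.27. Integrins split, with 5 of 17 higher and 8 lower, among them Itga8, which read 12.18, 12.23 and 12.10 in WT and 10.50, 10.51 and 10.48 in KO (difference -1.67, SE 0.05). Lrrn3, a leucine-rich membrane protein, read 12.15, 12.16 and 12.14 in WT and 8.68, 8.72 and 8.67 in KO (difference -3.46, SE 0.05). Map1b, a microtubule protein, read 10.62, 10.62 and 10.46 in WT and 7.48, 7.54 and 6.92 in KO (difference -3.25, SE 0.15), and the tubulin gene Tubb2a rose by 1.60.

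Guidance genes, which steer axons and migrating cells, were called in 83.3% of 48 tested cases, with 14 higher and 26 lower. Slit2, a repellent ligand, read 12.47, 12.49 and 12.40 in WT and 9.36, 9.23 and 9.19 in KO (difference -3.19, SE 0.06, limma adjusted p = 2.85e-11), and its receptor Robo2 differed by -3.21. Among semaphorins Sema6d read 9.40, 9.36 and 9.61 in WT and 6.39, 6.35 and 6.29 in KO (difference -3.11, SE 0.07), and Sema3e and Sema3c rose by 3.47 and 2.34. The ephrin receptor Epha7 differed by -3.16.

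Carriers and channels were lower in 20 of 32 tested cases and higher in 6. Slc1a3, a glutamate transporter, and the glucose carrier Slc2a10 differed by -5.22 and -2.20. Cacna1c, the pore of an L-type calcium channel, read 10.38, 10.38 and 10.56 in WT and 7.33, 7.35 and 7.29 in KO (difference -3.12, SE 0.07, limma adjusted p = 1.99e-10), and the gap junction gene Gja1 differed by -1.95. Among chromatin genes Hmga2, an architectural protein of embryonic cells, read 11.61, 11.50 and 11.88 in WT and 8.72, 8.61 and 8.53 in KO (difference -3.04, SE 0.09). Of the Kruppel-like factors Klf5 read 9.47, 9.43 and 9.52 in WT and 12.10, 12.12 and 11.95 in KO (difference 2.58, SE 0.06), with Klf15 higher and Klf9 lower (2.22 and -1.94). Of 19 circadian clock genes 3 were higher and 6 lower, 47.4% called, which is near the share of all tested genes.

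KO was set beside CK, the genotype named p27CK, to see where the genes above differ between the mutants. In published work this name stands for a p27 that cannot bind cyclins and CDKs; the labels give the name alone. limma called 62.2% of tested genes between KO and CK, and 341 of the 410 named genes. CK and KO are compared with the same WT arrays, so their differences from WT are given side by side only. The named genes were chosen by how KO differed from WT, with CK arrays entering the filter and the spread estimate. The same KO arrays enter KO against CK. Counts of named genes called between KO and CK are thus descriptions. Of the 20 largest rises, KO was called above CK in 19 and Adgrg6 was not called (0.30, limma adjusted p = 0.168). In 10 of the 20 the CK mean lay within 2-fold of WT. Cytl1 is one, with KO 6.20 above CK and CK minus WT at -0.41, and Sorbs2 another, with KO 4.82 above CK. Of the 20 largest falls, KO was called below CK in 18, above it in Dio2 (0.29), and not called in Inmt (-0.18, limma adjusted p = 0.188). In 7 of the 20 the CK mean lay within 2-fold of WT, among them Mmp3 (KO minus CK -6.26), Thy1 (-4.56), Ccl2 (-4.36) and Crabp1 (-4.78). Gpc3 was high in both mutants, with CK arrays at 12.25, 12.14 and 12.04, and KO was above CK by 0.55. For Col2a1 the CK arrays read 9.04, 9.08 and 9.01, below all WT arrays, and for Mfap5 11.60, 11.80 and 11.90, above the KO arrays.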

How the data were processed

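The deposited series table holds log2 expression values of 34760 Affymetrix probe sets on 9 arrays, which the authors computed by RMA with affy, as listed per the submitters' processing notes (versions not given in the sources used here). The decimal mark was missing from the table and was restored: values starting with 1 were read as 10 to 14, all others as 4 to 9. Of the probe sets 21640 carry 1 gene symbol, and the brightest was kept for each of 19937 genes, 954 of which had more than 1. The 11962 genes whose mean reached the 40th percentile (7.24) were tested in one limma 3.58.1 fit (R 4.3.3) over the 9 arrays with a term per genotype, tested on simulated data first. Named genes were the target, the 20 largest rises and falls, and the 10 largest of each with both groups at or above the median of genes (8.06). These rises and falls had separate KO and WT arrays. Each role of a list added up to 4 called genes with the smallest p, whose arrays may overlap, for 410 in all. Uncalled members of a list are named as such. Some values are identical on all arrays of a genotype. The members and gene lists were chosen with earlier results of these data known. Promoter windows come from RefSeq (GRCm38.p6). Alternatives changed the filter, the probe-set rule, the normalization, the fit and the arrays left out.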

Additional observations from a re-analysis of the deposited data

How the results depend on the processing

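With 1 array of either genotype left out in turn, limma called 5297 to 5899 genes against 6129 with all arrays, 2717 to 3091 of them higher and 2479 to 2808 lower, with 382 to 413 at least 2-fold higher and 627 to 667 at least 2-fold lower. The Cdkn1b difference then lay between -4.12 and -4.02, 988 to 1101 members of the gene lists were called, 393 to 401 of the 410 named genes were called, and 325 to 344 named genes differed between KO and CK. Without a filter on dim genes 6718 genes were called, at an adjusted p under 0.01 4664, with array weights 7489, from the 6 KO and WT arrays alone 6276, and without genes tied in a group 5994. Centring each array on its median gave 3239 genes higher and 2553 lower, against 3184 and 2945. With KO and WT means both at or above the 40th percentile 5783 genes were called, 336 at least 2-fold higher and 499 at least 2-fold lower. That setting called 347 of the 410 named genes and left the others untested. Of the named genes still tested 0 reversed under any of these alternatives. Up to 25 lost their call, that number at an adjusted p under 0.01, among them Cdt1. The share of windows with TTTGAA was 18.1% over 27025 windows, 1 per gene and without chromosome 18, against 11.3% over tested genes. The labels do not say whether the replicate numbers pair the arrays. Deviations from the group means correlated at 0.0818, 0.144 and 0.391 for KO and WT arrays of equal number. For unequal numbers the correlations ran from -0.358 to 0.316, the highest being that of the first KO array with the second WT array. Whether arrays of equal number share an effect was not tested. With the replicate number as a block limma called 5979 genes. The fit of 6 arrays holds no CK array and gives no value for KO against CK. The 3 arrays per group limit precision, and dim genes have no bound of detection.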

Other observations

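Further genes bright in both genotypes differed widely. Aif1l, an actin-bundling protein, read 8.37, 8.44 and 8.75 in WT and 11.52, 11.48 and 11.92 in KO, and the LIM domain gene Lmcd1 was also among the 10 largest such rises, which lay between 2.64 and 4.73. The 10 largest falls of this kind lay between -5.20 and -3.82. Across all genes, 9 were under the 40th percentile on every WT array and at or above the 80th on every KO array, and 12 the other way round. Adipocyte genes had 11 of 16 tested lower and 3 higher, 0 of them past 2-fold.

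The direction of called genes differed by chromosome, beside 26.6% higher and 24.6% lower among all tested genes. On chromosome 4 347 of 756 tested genes were higher and 119 lower, with a median difference of 0.13, on chromosome 8 257 and 106 of 657, and on chromosome 9 245 and 118 of 690. On chromosome 11 124 of 1019 were higher and 398 lower, with a median of -0.10, and on chromosome 15 63 and 183 of 481. Other chromosomes leaned to either side as well, such as 12, with 78 higher and 151 lower of 429, and 3, with 181 and 137 of 566. Chromosome 6, which carries Cdkn1b, had 172 of 579 higher and 132 lower. These are counts over genes of the same 6 arrays, and no test was made of them.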
